A study of Homo sapiens with 6 samples.

Results

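GNAO1 and 9 other genes for the alpha subunits of heterotrimeric G proteins were followed in NCI-H1299, a line derived from a human lung carcinoma, with and without overexpression of MTSS1. The 10 members were taken by gene name from a count table of 64253 Ensembl identifiers, and all 10 had enough reads to be among the 16091 genes tested. They are GNAO1, GNAI1, GNAI2, GNAI3 and GNAZ of the Gi/o class, GNAS of the Gs class, GNAQ and GNA11 of the Gq/11 class, and GNA12 and GNA13 of the G12/13 class. GNAO1 led to the choice of this family: its fold change was among the 10 highest of the genes that passed the test and averaged 5 CPM or more (CPM, read counts scaled to a common library size), and with a mean of 5.13 CPM over the 6 libraries it lay just above that minimum. Its difference between the groups is therefore given as a description, with no test. The other 9 were listed as its relatives and not for their own values, though earlier results of these data were known.

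Wild type cells and cells carrying an mCherry-tagged MTSS1 plasmid gave 3 poly(A) RNA libraries each. The labels state neither a time point nor a clone for either group. The plasmid-bearing cells went through hygromycin selection and flow sorting, none of the 6 libraries is labelled as a plasmid control, and so MTSS1 itself cannot be told apart from the tag, the selection or the sorting. The labels mention HEK293T, a human embryonic kidney line, in connection with the transfection. They do not say whether replicates came from separate cultures, and p-values then measure only the spread between these libraries.

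A heterotrimeric G protein couples a seven-transmembrane receptor to enzymes and channels inside the cell. The receptor makes the alpha subunit exchange GDP for GTP, alpha and the beta-gamma pair then act on their own effectors, and hydrolysis of GTP, sped up by RGS proteins, ends the signal. Alpha subunits of the Gs class stimulate adenylyl cyclase and those of the Gi class inhibit it, Gq/11 activates phospholipase C beta, and G12/13 activates exchange factors for small GTPases. GNAO1 encodes Go alpha, which is among the most abundant membrane proteins of the brain and is best known for signalling through beta-gamma to ion channels in neurons.

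The 250 bases before the RefSeq start site of GNAO1 are shown because GNAO1 was the member with the largest difference between the groups (RefSeq, GRCh38.p14, chr16:56191239-56191488, plus strand, 5′ to 3′). Capitals mark GC boxes, searched as GGGCGG on both strands and read here as its reverse complement, and a cAMP response element, searched as TGACGTCA.
GNAO1 promoter: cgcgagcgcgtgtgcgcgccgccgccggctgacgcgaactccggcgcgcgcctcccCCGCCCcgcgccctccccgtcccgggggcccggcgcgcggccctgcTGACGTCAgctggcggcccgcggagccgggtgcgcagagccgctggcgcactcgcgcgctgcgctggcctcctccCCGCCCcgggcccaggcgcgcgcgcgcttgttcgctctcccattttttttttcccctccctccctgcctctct
This stretch was 79.2% G and C and held 44 CpG dinucleotides, against medians of 58.0% and 11 over 35116 promoter windows of that length in the same table. It had 2 GC boxes, and 42.6% of all windows had at least 1. The cAMP response element lay 148 to 141 bases before the RefSeq start, and 1.65% of all windows held this motif. None of the 17 windows that the table holds for GNAI1, GNAI2, GNAI3, GNAS, GNA11, GNA12 and GNA13 contained it. Neither a TATA box (TATAAA, 10.7% of windows) nor a kappa B site of the NF-κB family (9.96%) matched in the GNAO1 window. The GENCODE gene used for the coordinates below starts further upstream, inside this window and within the cAMP response element, so the later part of the window lies inside that gene. These letter matches are a description of sequence and not of binding.

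Total counts ranged from 13883380 to 29479453 per library. MTSS1 stood at 17.96 to 24.3 CPM in wild type and at 544 to 568 CPM in overexpressing libraries. Along the principal component with the most variance (34.8%), replicate 1 of both groups lay apart from the other 4 libraries. Of 10 lung and simple epithelial markers, KRT18 had the highest level, at 522 ± 105 and 299 ± 88.3 CPM in the 2 groups (SD, n = 3). The surfactant gene SFTPB was listed at 0 and SFTPC had 1 read in all, so defining markers of alveolar cells were absent or nearly so. KRT8 fell by 1.74 on the log2 scale (edgeR adjusted p = 0.011; 0.055 without overexpressing replicate 3). NKX2-1, a lung lineage factor, stood at 0.629 to 1.59 CPM in wild type and at 2.35 to 2.92 CPM in overexpressing libraries and did not pass (edgeR adjusted p = 0.12; 0.022 with a block, a term in the fit for each pair of libraries with neighbouring numbers in their titles). KRT18 did not pass (edgeR adjusted p = 0.061; 4.4e-06 with the block). The other 2 tested markers had higher values in overexpressing cells without passing, KRT7 by 1.05 on the log2 scale (edgeR adjusted p = 0.16; 0.042 with the block) and EPCAM by 0.66 (edgeR adjusted p = 0.44), and the list's median was 0.66. The summed level of the list, nearly all of it KRT18 and KRT8, was 571 to 853 CPM in wild type and 259 to 470 CPM in overexpressing libraries, and its part in the results below was not tested. Of 4 kidney lineage genes listed for HEK293T, PAX8 stood at 3.64 to 4.30 CPM in wild type and 2.96 to 4.54 CPM in overexpressing libraries. PAX2 had 6 and 2 reads, SALL1 1 and 1, and LHX1 was at 0. NEFM, a neurofilament gene listed with them, stood at 3.24 to 6.31 and 4.38 to 6.36 CPM.

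GNAO1 (ENSG00000087258, chromosome 16, 56191347 to 56357457, plus strand, GRCh38) was a weakly expressed gene that stood higher in overexpressing cells. It had 49, 45 and 70 reads in wild type replicates 1 to 3 and 92, 259 and 183 reads in the overexpressing replicates. Scaled by library, this was 2.60, 1.49 and 2.63 CPM in the first group and 6.76, 9.96 and 7.32 CPM in the second. Every overexpressing library lay above every wild type library. Wild type replicate 2 was the lowest of all and overexpressing replicate 2 the highest.

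**Figure D1:**
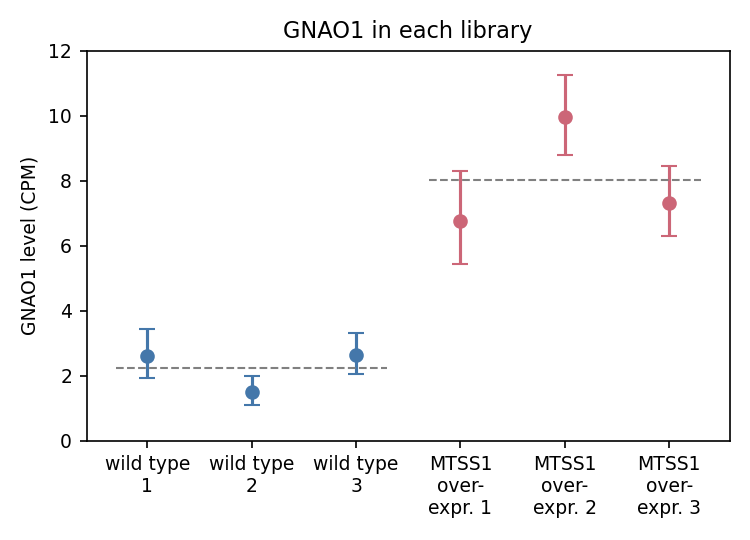
GNAO1 level (CPM) in each of the 6 libraries. Bars are exact 95% Poisson intervals of the read count and cover counting error only, and dashed lines are group means. The highest wild type interval ends at 3.44 CPM and the lowest overexpressing interval begins at 5.45 CPM.

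Group means were 2.24 ± 0.650 and 8.01 ± 1.71 CPM (SD, n = 3), a 3.62-fold difference (log2 fold change 1.85, SE 0.27). Reads carried no molecular identifiers and are not independent molecules, so the exact Poisson intervals speak for counting error alone. They ran from 1.09 to 3.44 CPM over the wild type libraries and from 5.45 to 11.2 CPM over the overexpressing libraries. Without 1 library at a time the log2 fold change lay between 1.62 and 2.00. The splice forms that encode the 2 Go alpha proteins are counted together and cannot be separated in this table.

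The genes around GNAO1 did not share its difference. Over the 50 tested genes nearest to it on chromosome 16, 25 on each side, the median log2 fold change was 0.07, and 0 were higher and 1 lower by the edgeR test, against 1.82% and 2.45% of all tested genes. The nearest tested gene before it, the pseudogene CES1P2, stood at 2.40 ± 1.28 and 2.06 ± 1.12 CPM (SD, n = 3; edgeR adjusted p = 0.86). GNAO1-AS1, which overlaps GNAO1 on the opposite strand, had 0 reads in every library. The 4 other annotated genes that overlap it had 1 read in all. How reads shared between overlapping genes were assigned is not known, so these counts do not settle their part in the GNAO1 count.

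None of the other 9 alpha genes passed the edgeR test, with 0 higher and 0 lower, against 4.28% of all tested genes called in either direction. GNAQ was the only 1 of the 9 with an unadjusted p under 0.05, against 19.8% of all tested genes. DESeq2 also called 0 of the 9, against 7.79% of all tested genes in either direction. Their median log2 fold change was -0.01 and the median of all tested genes was 0.00. The values of the groups did not overlap for 4 of the 9 (GNAS, GNAQ, GNA13 and GNAZ), against 25.5% of all tested genes. With the block of neighbouring title numbers, 1 of the 9 passed, GNAQ, which was lower, against 22.7% of all tested genes called in either direction.

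**Figure D2:**
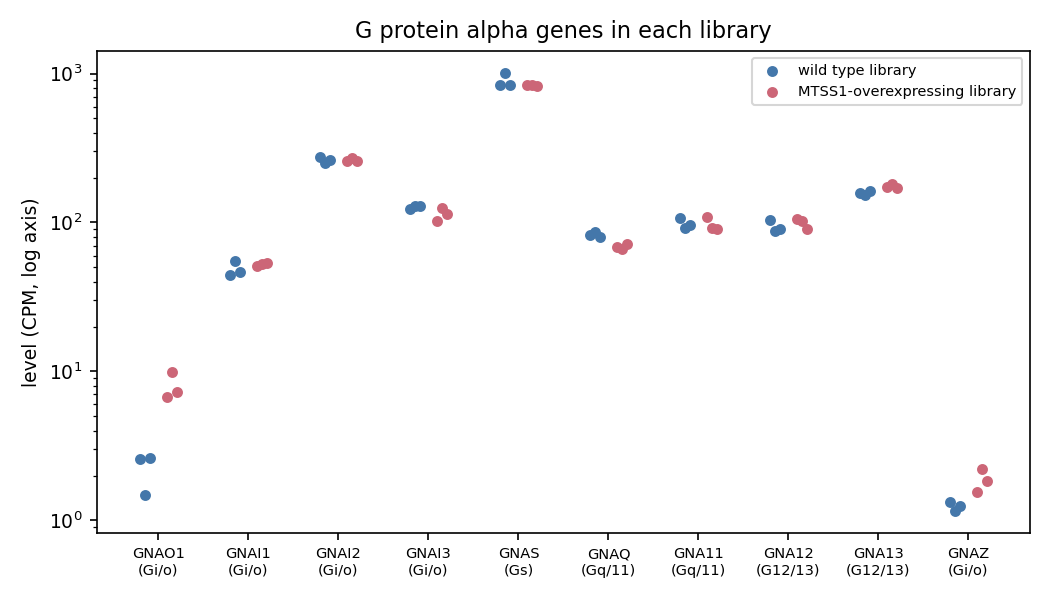
Level (CPM, log axis) of the 10 alpha genes, 1 point per library, wild type on the left and MTSS1 overexpressing on the right of each gene. GNAO1 and GNAZ lie lowest in CPM, and the GNAO1 groups are the most widely separated.

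Among the Gi genes, whose products inhibit adenylyl cyclase, GNAI2 (ENSG00000114353, chromosome 3, 50226292 to 50259355) stood at 276, 252 and 264 CPM in wild type and 259, 269 and 260 CPM in overexpressing libraries. The groups overlapped, and the log2 fold change was -0.01 (95% interval -0.18 to 0.16, edgeR adjusted p = 0.96). GNAI1 (ENSG00000127955, chromosome 7, 79768028 to 80226181) stood at 44.7, 55.3 and 46.8 CPM against 50.8, 52.6 and 53.3 CPM. Wild type replicate 2 was the highest library of all, and the log2 fold change was 0.09 (95% interval -0.14 to 0.32, edgeR adjusted p = 0.69).

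GNAI3 (ENSG00000065135, chromosome 1, 109548611 to 109618321) stood at 123, 128 and 129 CPM in wild type and at 102, 125 and 114 CPM in overexpressing libraries. Overexpressing replicate 2 lay within the wild type range, and the log2 fold change was -0.16 (95% interval -0.36 to 0.04, edgeR adjusted p = 0.38). The annotated 3′ part of GNAI3 overlaps AMPD2, an AMP deaminase gene on the same strand, so their reads may be split or lost there. AMPD2 stood at 77.5 ± 9.50 and 58.6 ± 11.99 CPM (SD, n = 3; edgeR adjusted p = 0.16). GNAI3 also overlaps GNAT2, the cone transducin gene, which had 10 reads in wild type and 20 in overexpressing libraries and was not tested.

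GNAZ (ENSG00000128266, chromosome 22, 23070361 to 23125037) encodes Gz alpha, a Gi/o subunit that pertussis toxin does not modify. It had 25, 35 and 33 reads in wild type and 21, 58 and 46 in overexpressing libraries, or 1.33, 1.16 and 1.24 CPM against 1.54, 2.23 and 1.84 CPM. The groups did not overlap. Its log2 fold change of 0.60 did not pass the test (95% interval -0.09 to 1.30, edgeR adjusted p = 0.32).

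GNAS (ENSG00000087460, chromosome 20, 58839718 to 58911192), the Gs gene at an imprinted locus with several promoters, had the most reads of the family. It stood at 837, 1014 and 840 CPM in wild type and at 834, 834 and 829 CPM in overexpressing libraries. The separation was narrow and wild type replicate 2 lay well above the rest (log2 fold change -0.11, 95% interval -0.32 to 0.10, edgeR adjusted p = 0.59). Its transcripts from different promoters are summed in 1 count. The antisense transcript GNAS-AS1 stood at 1.504 ± 0.598 and 1.66 ± 0.325 CPM (SD, n = 3), and ENSG00000225806, also antisense to GNAS, had 54 reads in wild type, 38 of them in replicate 2, and 28 in overexpressing libraries. How the counting treated strand is not given in the sources used here. For that reason sense and antisense reads cannot be told apart.

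In the Gq/11 class, GNAQ (ENSG00000156052, chromosome 9, 77716087 to 78031458) stood at 82.6, 85.9 and 79.5 CPM in wild type and at 69.0, 66.0 and 71.6 CPM in overexpressing libraries. All 3 overexpressing libraries lay below all wild type libraries. The log2 fold change of -0.26 (95% interval -0.44 to -0.09) did not pass the edgeR test over all genes (adjusted p = 0.095) and passed with the block (edgeR adjusted p = 0.0099). Its close relative GNA11 (ENSG00000088256, chromosome 19, 3094410 to 3124004) stood at 107, 91.6 and 95.9 CPM against 109, 91.7 and 89.8 CPM. Those groups overlapped (log2 fold change -0.02, 95% interval -0.25 to 0.20, edgeR adjusted p = 0.93). Whether GNAQ and GNA11 differ from each other in their response was not tested.

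In the G12/13 class, GNA13 (ENSG00000120063, chromosome 17, 65010715 to 65056839) stood at 157, 154 and 164 CPM in wild type and at 173, 182 and 170 CPM in overexpressing libraries. The groups did not overlap, and the log2 fold change of 0.15 did not pass (95% interval -0.02 to 0.31, edgeR adjusted p = 0.32). The median of its 50 neighbours was 0.18. GNA12 (ENSG00000146535, chromosome 7, 2728112 to 2844324) stood at 104, 88.3 and 91.0 CPM against 106, 103 and 90.9 CPM. Its groups overlapped (log2 fold change 0.08, 95% interval -0.14 to 0.30, edgeR adjusted p = 0.72).

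**Figure D3:**
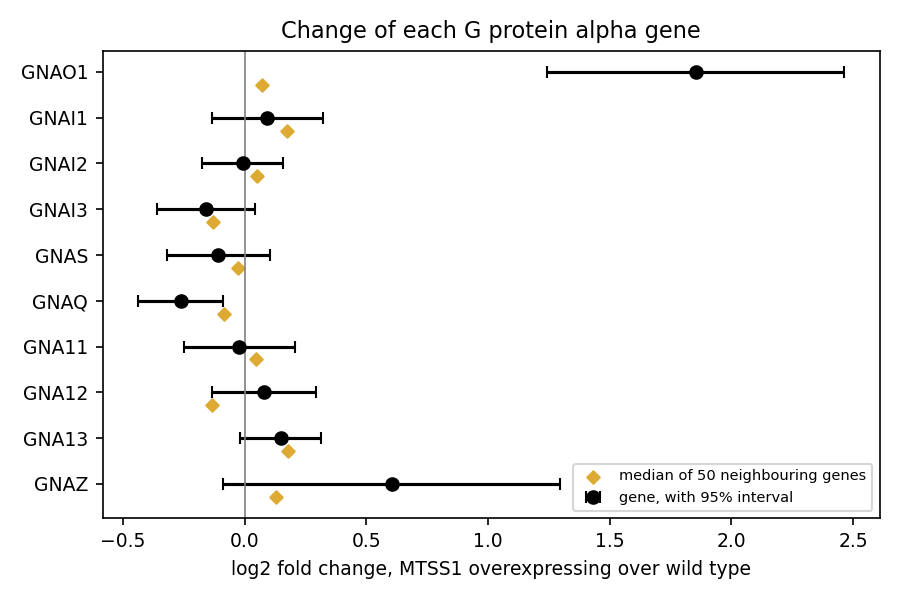
Log2 fold change of each alpha gene, overexpressing over wild type (points, with 95% intervals from the edgeR fit), and median log2 fold change of its 50 neighbouring tested genes (diamonds). GNAO1 stands at 1.85 with a neighbour median of 0.07, and the other 9 lie between -0.26 and 0.60.

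Levels of different genes were compared per kilobase of the exons of GENCODE principal transcripts, over all 6 libraries. The order was GNAS (mean 439 CPM per kb), GNAI2 (107), GNA13 (33.8), GNA11 (23.5), GNA12 (22.2), GNAQ (11.6), GNAI3 (4.42), GNAI1 (4.38), GNAO1 (1.18) and GNAZ (0.467). The ranges over libraries overlapped between GNA11 and GNA12, between GNAI3 and GNAI1, and between GNAO1 and GNAZ, and not between the other neighbours in this order. GNAI3 and GNAI1 have long transcript models, of 27174 and 11557 bases. Per kilobase of coding sequence, GNAI3 moved up to come next after GNA13 with 113 CPM per kb and its range overlapped that of GNA11, while GNAI1 kept its place before GNAO1 and GNAZ, which stayed last with 4.83 and 1.46 CPM per kb. Here all reads of a gene, also those outside its coding sequence, were divided by the coding length. That raises genes with long noncoding exon parts, such as GNAI3 with 1062 coding bases, so neither order is exact.

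GNAO1 was a small part of the Gi/o transcripts in both groups. Per kilobase of principal exons it made up 0.490, 0.303 and 0.516% of the 5 Gi/o genes in wild type libraries and 1.35, 1.88 and 1.44% in overexpressing libraries. Per kilobase of coding sequence the shares were 0.505 ± 0.143% and 1.82 ± 0.305% (SD, n = 3). The summed Gi/o level was 117 ± 4.50 and 118 ± 3.30 CPM per kb of principal exons (SD, n = 3), with overlapping groups. GNAI2 made up most of that sum, at 107 ± 4.88 and 106.5 ± 2.38 CPM per kb (SD, n = 3). Its part was smaller per kilobase of coding sequence, at 248 ± 11.3 and 246 ± 5.50 CPM per kb. The Gi/o sum was then 417 ± 4.29 and 412 ± 18.6 CPM per kb (SD, n = 3). The Gs share of all 10 members was 68.6 ± 3.07% and 66.8 ± 0.472%, the Gq/11 share 5.51 ± 0.543% and 5.36 ± 0.394% and the G12/13 share 8.15 ± 0.821% and 9.24 ± 0.344% (SD, n = 3, per kb of principal exons).

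The genes most like GNAO1 in their log2 CPM over the 6 libraries were AKR1E2 (r = 0.997), CHCHD3 (0.996), PIGL (0.995), RPS6KA1 (0.994) and DPYSL5 (0.993), out of 10814 genes averaging 5 CPM or more. They lie on chromosomes 10, 7, 17, 1 and 2. The points share 2 groups of 3 libraries, so these values mostly restate the difference between the groups. The sizes of the difference were unlike, with log2 fold changes of 0.37, 0.28, 0.42, 0.67 and 2.21. Among the members, GNA13 (0.95) and GNAZ (0.94) had the highest correlation with GNAO1 and GNAQ (-0.98) the lowest.

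The rest of the G protein pathway was read from a list of 155 genes chosen by function, of which 93 were tested. By the edgeR test 1 was higher and 3 were lower, against 1.82% and 2.45% of all tested genes, and 89 did not pass. The median log2 fold change was -0.01. With the block the counts were 15 higher and 11 lower, against 22.7% of all tested genes in either direction. Without replicate 1 of both groups, the libraries that stood apart, the counts were 0 higher and 1 lower. DESeq2 called 5 higher and 4 lower, against 7.79% of all tested genes in either direction.

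**Figure D4:**
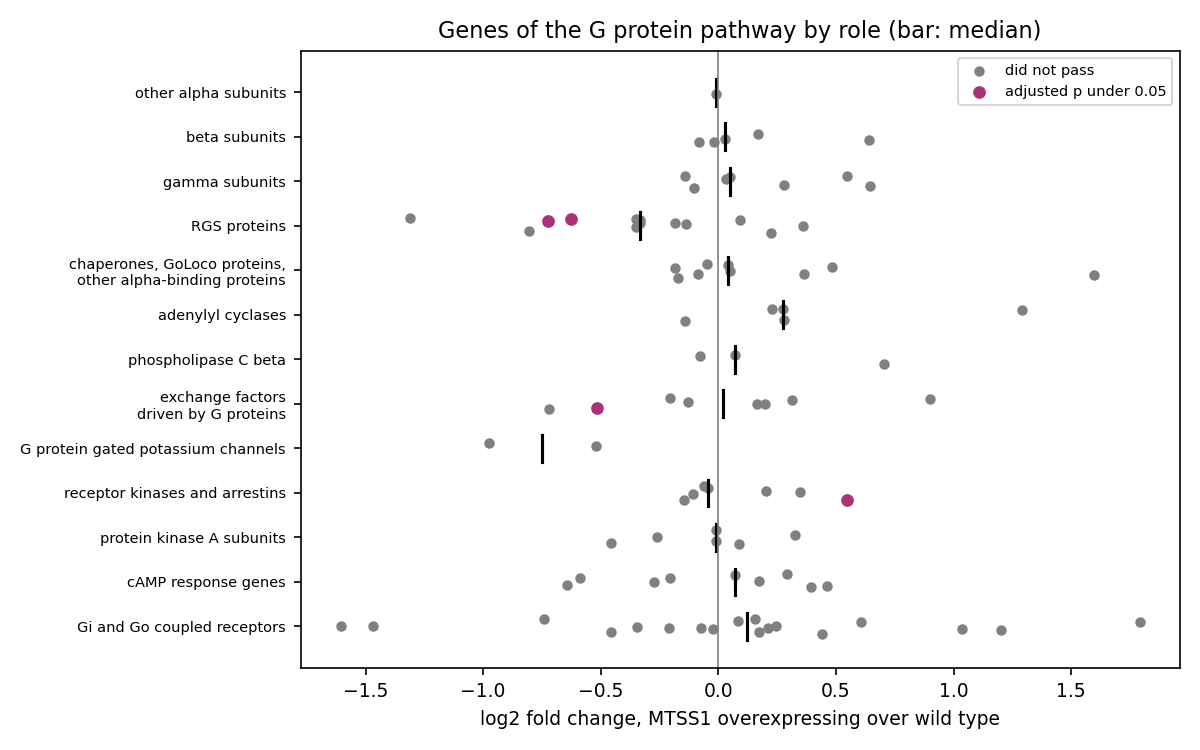
Log2 fold change (overexpressing over wild type) of the 93 tested pathway genes by role, 1 point per gene, with a black bar at each list's median. The 4 purple points passed the edgeR test, and the RGS list has its median at -0.33.

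Beta and gamma subunits, the partners that every alpha subunit needs, gave 0 higher and 0 lower of 5 and of 7 tested by edgeR. Of all tested genes, 4.28% were called in either direction. None of these subunit genes had an unadjusted edgeR p under 0.05, against 19.8% of all tested genes. GNB1, the beta gene with the highest level, stood at 566.5 ± 11.3 and 559 ± 21.8 CPM (SD, n = 3; log2 fold change -0.02, edgeR adjusted p = 0.93). GNG12 was the highest gamma gene, with 480.4 ± 33.8 and 448 ± 41.2 CPM (SD, n = 3; edgeR adjusted p = 0.63). With the block 1 beta gene, GNB4, was higher (edgeR adjusted p = 0.044), against 22.7% of all tested genes called in either direction. Of the remaining 6 alpha genes only GNAL, the Golf gene of olfactory neurons, was tested, at 10.9 ± 0.497 and 10.8 ± 1.54 CPM (SD, n = 3; edgeR adjusted p = 0.98). GNAT1 and GNAT3, the rod and taste transducin genes, had 0 reads in all libraries, and GNA15, of the Gq class, had 8 and 3.

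RGS proteins speed up GTP hydrolysis by alpha subunits. Of 13 tested RGS genes, 0 were higher and 2 lower by edgeR, against 1.82% and 2.45% of all tested genes. An unadjusted edgeR p under 0.05 was found for 5, against 19.8% of all tested genes. The median over the list was -0.33 on the log2 scale, against 0.00 over all tested genes. Of the 13 values, 10 were below 0 and 3 above. RGS3 (ENSG00000138835, chromosome 9, 113444731 to 113597743), which acts on Gi and Gq subunits, stood at 60.4, 48.1 and 51.9 CPM in wild type and at 38.2, 29.6 and 29.4 CPM in overexpressing libraries, without overlap. It fell by 0.73 on the log2 scale (SE 0.13, edgeR adjusted p = 0.020). RGS17 (ENSG00000091844, chromosome 6, 153004459 to 153131249), of the RZ subfamily that acts on Gz and other Gi/o subunits, stood at 40.8, 52.7 and 53.5 CPM in wild type and at 27.2, 33.2 and 34.7 CPM in overexpressing libraries. It fell by 0.62 (SE 0.14, edgeR adjusted p = 0.037).

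Both calls held with the block (edgeR adjusted p = 4.6e-05 for RGS3 and 1.1e-04 for RGS17) and by DESeq2 (4.3e-05 and 0.0011), and depended on single libraries. RGS3 passed in 2 of the 6 fits without 1 library, failing without wild type replicate 1 or 3 or overexpressing replicate 2 or 3 (highest edgeR adjusted p 0.086). RGS17 passed only without wild type replicate 1 (highest edgeR adjusted p 0.14) and did not pass against its neighbours, whose median was -0.22 (log2 fold change -0.40, edgeR adjusted p = 0.20). It also failed without both libraries that stood apart (edgeR adjusted p = 0.071), where RGS3 passed (0.043). RGS20, another RZ member, stood at -0.33 on the log2 scale and missed the threshold (edgeR adjusted p = 0.13; 0.0061 with the block), as did RGS10 at -0.35 (edgeR adjusted p = 0.12; 0.0051 with the block). With the block 5 RGS genes were lower and 0 higher, the fifth being RGS5, against 22.7% of all tested genes called in either direction. Of the RGS genes that act with beta 5 in neurons, RGS6 and RGS7 had 1 and 3 reads over all libraries, while RGS9 and RGS11 were tested and did not pass.

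**Figure D5:**
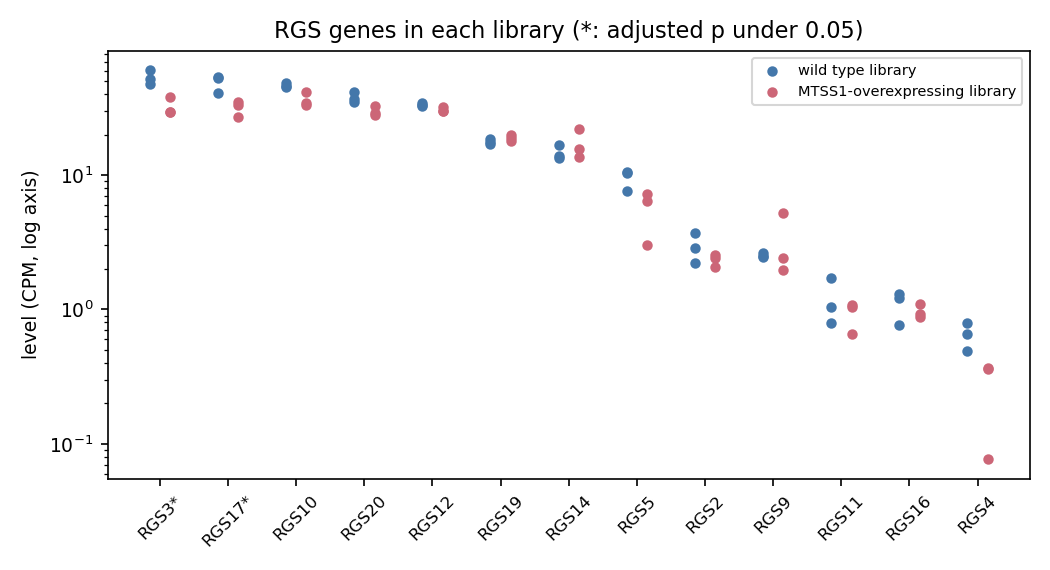
Level (CPM, log axis) of the 13 tested RGS genes, 1 point per library, ordered by wild type mean, with a star where the edgeR adjusted p is under 0.05. RGS3 and RGS17 have the highest wild type means, 53.5 and 49.0 CPM, and their groups do not overlap.

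Proteins that bind alpha subunits outside the receptor cycle include the chaperones RIC8A and RIC8B and the GoLoco proteins GPSM1 and GPSM2. Their genes gave 0 calls of 9 tested by edgeR, against 4.28% of all tested genes called in either direction. An unadjusted edgeR p under 0.05 was found for 1, against 19.8% of all tested genes. CCDC88A, encoding the exchange factor Girdin and the highest gene of the list, stood at 345.5 ± 23.8 and 356 ± 23.0 CPM (SD, n = 3; edgeR adjusted p = 0.85). The gene with the low p was GPRIN3, of a family that binds activated Go alpha. It stood at 0.470 ± 0.271 and 1.44 ± 0.313 CPM (SD, n = 3; log2 fold change 1.60, edgeR adjusted p = 0.10; 0.016 with the block).

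Effector genes gave 1 call by edgeR. Adenylyl cyclases gave 0 of 5 tested, phospholipase C beta 0 of 3 and the G protein gated potassium channels, targets of beta-gamma, 0 of 2. Of all tested genes, 4.28% were called in either direction. ADCY3, the highest cyclase gene, stood at 70.7 ± 3.27 and 85.8 ± 8.86 CPM (SD, n = 3; log2 fold change 0.28, edgeR adjusted p = 0.13; 0.0079 with the block). PLCB4, an effector of Gq, stood at 103, 101 and 124 CPM in wild type and at 187, 129 and 221 CPM in overexpressing libraries. Its groups did not overlap, as for 25.5% of all tested genes. Its log2 fold change of 0.71 did not pass (edgeR adjusted p = 0.057) and passed with the block, by DESeq2 and without overexpressing replicate 2 (adjusted p = 3.6e-04, 8.7e-04 and, by edgeR, 0.018). KCNJ3, the channel gene with the highest level, stood at 1.86 ± 0.807 and 1.32 ± 0.254 CPM (SD, n = 3; edgeR adjusted p = 0.54).

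The call came from the exchange factors, where 0 were higher and 1 lower of 8 tested by edgeR, against 1.82% and 2.45% of all tested genes. ARHGEF11 (ENSG00000132694, chromosome 1, 156934840 to 157045370), an exchange factor gene whose product G12/13 subunits activate, stood at 79.3, 87.5 and 74.8 CPM in wild type and at 58.4, 57.3 and 53.4 CPM in overexpressing libraries, without overlap. It fell by 0.52 on the log2 scale (SE 0.09, edgeR adjusted p = 0.015). The median of its 50 neighbours was -0.39, and against them ARHGEF11 did not pass (log2 fold change -0.12, edgeR adjusted p = 0.59). It also failed without overexpressing replicate 2 or 3 (highest edgeR adjusted p 0.077) and without both libraries that stood apart (0.10), and passed with the block (2.0e-04) and by DESeq2 (1.4e-04). Its relative ARHGEF12, at 376 ± 23.7 and 326 ± 24.3 CPM (SD, n = 3), did not pass (log2 fold change -0.21, edgeR adjusted p = 0.23; 0.021 with the block).

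Receptor kinases and arrestins, which shut off active receptors, gave 1 higher and 0 lower of 7 tested by edgeR, against 1.82% and 2.45% of all tested genes. ARRB2, encoding beta-arrestin 2 (ENSG00000141480, chromosome 17, 4710489 to 4721499), stood at 22.5, 20.3 and 18.4 CPM in wild type and at 34.0, 27.6 and 27.9 CPM in overexpressing libraries, without overlap. It rose by 0.55 (SE 0.13, edgeR adjusted p = 0.049). The call was lost in each of the 6 fits without 1 library (highest edgeR adjusted p 0.17), with library totals as the only scaling (0.051), against its neighbours (0.069, with a log2 fold change of 0.56) and without both libraries that stood apart (0.18). It held with the block (edgeR adjusted p = 0.0012), without the low-count filter (0.0043) and by DESeq2 (0.0059). GRK6 was the highest kinase gene, at 50.3 ± 4.59 and 64.0 ± 6.69 CPM (SD, n = 3; edgeR adjusted p = 0.11; 0.0031 with the block).

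Downstream of adenylyl cyclase, neither protein kinase A subunits nor cAMP response genes had a call by edgeR, with 0 of 6 and 0 of 9 tested (2 and 1 with an unadjusted p under 0.05). The shares over all tested genes were 4.28% called in either direction and 19.8% with an unadjusted p under 0.05. PRKAR2B stood higher, at 36.1 ± 3.70 and 45.3 ± 1.09 CPM (SD, n = 3; edgeR adjusted p = 0.11; 0.0088 with the block). PRKACB stood lower, at 32.3 ± 6.70 and 23.6 ± 0.649 CPM (SD, n = 3; edgeR adjusted p = 0.12; 0.011 with the block). The groups did not overlap for 3 of the 6 tested kinase subunit genes, PRKAR2B, PRKACB and PRKAR2A, against 25.5% of all tested genes. PRKAR1A, the highest kinase subunit gene, stood at 264 ± 26.4 and 262 ± 19.4 CPM (SD, n = 3; edgeR adjusted p = 0.97). FOS, the highest cAMP response gene, stood at 116, 28.6 and 104 CPM in wild type and at 89.7, 34.7 and 81.3 CPM in overexpressing libraries. Replicate 2 was the low library in both groups (edgeR adjusted p = 0.82). With the block CREM, NR4A1 and PER1 of this list were higher, with fitted log2 fold changes of 0.39, 0.50 and 0.30 (edgeR adjusted p = 0.049, 0.030 and 0.024), against 22.7% of all tested genes called in either direction.

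Most genes for receptors that couple to Gi and Go had few or no reads. Of 50 listed, 18 were tested, and 0 were higher and 0 lower by edgeR, against 4.28% of all tested genes called in either direction. An unadjusted p under 0.05 was found for 6, against 19.8% of all tested genes, and DESeq2 called 2 higher and 1 lower, against 7.79%. F2R, the thrombin receptor gene PAR1 and the highest of the list, stood at 116, 113 and 126 CPM in wild type and at 85.6, 101 and 92.3 CPM in overexpressing libraries. Its groups did not overlap, as for 25.5% of all tested genes. F2R did not pass (log2 fold change -0.35, edgeR adjusted p = 0.062; 0.0033 with the block and 0.020 by DESeq2). The somatostatin receptor gene SSTR2 stood at 1.75, 0.662 and 2.03 CPM in wild type and at 5.29, 2.96 and 7.004 CPM in overexpressing libraries. Its log2 fold change of 1.79 did not pass either (edgeR adjusted p = 0.057; 3.5e-04 with the block and 0.0015 by DESeq2).

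PTGER3, for a prostaglandin E2 receptor, differed by 1.20 on the log2 scale without passing (edgeR adjusted p = 0.064; 0.0017 with the block and 0.0052 by DESeq2), at 3.17 ± 1.38 and 7.29 ± 1.00 CPM (SD, n = 3). On the low side, the adrenergic receptor gene ADRA2C stood at 1.67 ± 0.264 and 0.599 ± 0.165 CPM (SD, n = 3; edgeR adjusted p = 0.064; 0.014 with the block) and NPY1R at 1.17 ± 0.193 and 0.396 ± 0.177 CPM (SD, n = 3; edgeR adjusted p = 0.093; 0.030 with the block). Among untested receptors, ADORA1 had 27 reads in wild type and 2 in overexpressing libraries, SSTR1 36 and 8, and CHRM4 16 and 3, while CHRM2 and MTNR1A had 1 and 9 each. These are unscaled sums over libraries of genes named after their values were seen. Scaled by library, the groups overlapped for ADORA1, CHRM4, CHRM2 and MTNR1A. For SSTR1 the lowest wild type library stood at 0.2252 CPM and the highest overexpressing library at 0.2203 CPM. The dopamine receptor genes DRD2, DRD3 and DRD4, well-known Go partners in brain, had 0 reads in all 6 libraries. GABBR1 was listed at 0 as well, but it lies between 28.5 and 33.5 Mb of chromosome 6, where 141 of 179 protein-coding genes (78.8%) were listed at 0 against 18.9% elsewhere, so its level cannot be read.

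Since Go alpha is abundant in neurons, 17 neuronal and neuroendocrine markers were read beside GNAO1. Of 10 tested, 0 were higher and 0 lower by edgeR, against 4.28% of all tested genes called in either direction. DESeq2 also called 0, against 7.79%. CHGB, SNAP25, MAP2, SYN1 and NEUROD1 had an unadjusted edgeR p under 0.05, against 19.8% of all tested genes. All 5 had negative log2 fold changes. The median was -0.41, and 7 of the 10 values were below 0. TUBB3, ENO2 and SYP lay above 0, at 0.42, 0.26 and 0.05 on the log2 scale, without passing. UCHL1, the highest of the list, stood at 516 ± 44.6 and 451 ± 24.6 CPM (SD, n = 3; log2 fold change -0.19, edgeR adjusted p = 0.28; 0.013 with the block). With the block CHGB, SNAP25, MAP2, SYN1 and UCHL1 were lower and 0 were higher, against 22.7% of all tested genes called in either direction. The summed level of the list, most of it UCHL1, was 536.5 to 613 CPM in wild type and 488 to 531 CPM in overexpressing libraries, and CHGA was at 0. The part of these markers in the GNAO1 difference was not tested, and in bulk RNA a change in the number of cells of a type cannot be told apart from a change in RNA per cell.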

How the data were processed

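The study sequenced poly(A) RNA of NCI-H1299 cells, 3 libraries per group. The deposited table holds raw read counts per Ensembl gene. Per the submitters' processing notes, bcl2fastq, HISAT2 2.1.0, HTSeq and the GRCh38 build were used. Per the labels' protocols, a directional poly(A) kit and single reads of 50 cycles were used. Annotation release and strand setting: not given in the sources used here. Symbols came from the name table given and coordinates, symbols of the rest and lengths from GENCODE release 29 (GRCh38); 56591 identifiers had both. The test was edgeR (4.0.16, under R 4.3.3): TMM scaling, filterByExpr, glmQLFit and glmQLFTest, two-sided, Benjamini-Hochberg adjustment over 16091 genes, threshold 0.05. CPM uses TMM-scaled library sizes; log2 CPM for correlations used a prior count of 2. DESeq2 1.42.0 was an alternative, and others are given in the closing section. On simulated counts with 200 changed genes, the edgeR fit called 86.0% of genes raised 2-fold and 90.0% of genes lowered 2-fold. Every simulated gene was given the same biological coefficient of variation, 0.162, and changed genes were drawn above a minimum mean level. Measured genes of like level differed in spread, with an SE of the log2 fold change of 0.27 for KRT8 and 0.09 for GNAI3. In the measured libraries SSTR2 (3.46-fold, edgeR adjusted p = 0.057) and GPRIN3 (3.03-fold, 0.10) did not pass, while KRT8 (0.299-fold, 0.011) did. Whether the simulated shares hold for the measured counts was not tested. The members and lists were chosen with earlier results of these data known.

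Genes named are the members; in each list the genes that passed (5 at most, by smallest adjusted p) and the one with the highest mean CPM; genes overlapping a member with reads; the nearest tested gene on each side of GNAO1 (1 of them is not reported here); and the 5 most like GNAO1. Others were named after their values were seen. Library titles hold numbers in 3 neighbouring pairs of 1 library per group, and the labels name no batch. Within these pairs, deviations from the mean of each group correlated at 0.66, 0.34 and 0.38, and from -0.41 to 0.10 between others, so the fit with the pairs as a block is printed beside named members, pathway genes and markers whose call it changes. No library was a copy of another: within groups, chi-square divided by its degrees of freedom was 14.7 to 28.0. There were 0 columns of other samples.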

Additional observations from a re-analysis of the deposited data

How the results depend on the processing

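Under the alternatives tried, GNAO1's log2 fold change ran from 1.62 (without wild type replicate 2) to 2.07 (without both libraries that stood apart). It was 1.78 against its neighbours, 1.87 with neighbouring title numbers as a replicate block and 1.86 by DESeq2. These fits reuse the libraries from which GNAO1 was chosen, so they do not test its difference. Of the other 9 members, 0 were higher or lower in each alternative except the block, where 1 was lower. Counts moved more for the wider lists. Of the pathway list, main counts of 1 higher and 3 lower became 15 and 11 with the block, and 6 and 7 without the low-count filter. The higher count was 5 by DESeq2, and 0 both with library totals as the only scaling and with the neighbour offset. Without 1 library the pathway counts ranged from 0 to 1 higher and from 0 to 2 lower. Over all genes the main 688 became 3651 with the block, 1489 without the filter, 1253 by DESeq2 and 323 with the neighbour offset, and 145 to 346 without 1 library. Without both libraries that stood apart, an alternative chosen after seeing the data, the pathway list gave 0 higher and 1 lower and all genes 132. Members near 0 changed sign without passing. With the neighbour offset GNAI1 stood at -0.079 and GNA13 at -0.030. GNAI2 stood at 0.024, 0.0091 and 0.0022 without wild type replicate 1 and overexpressing replicates 1 and 3, and at 0.035 without both libraries that stood apart (lowest without 1 library -0.041). GNA11 stood at 0.044, 0.019 and 0.031 without wild type replicate 1 and overexpressing replicates 2 and 3 (lowest -0.107). The causes of these moves were not tested. GNAO1 and GNAZ rest on the fewest reads of the members, 164 and 93 over the wild type libraries, and their counting error is the widest.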
